A study of Mus musculus with 12 samples.

Results

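Transcripts of 9 secreted proteins were followed in mouse embryonic fibroblasts (MEFs) with and without etoposide. The genes, Il6, Lif, Il11, Il1a, Il1rn, Il33, Csf1, Tslp and Gdf15, were picked by name as cytokines released under stress, with earlier results of these data known. Their counts beside background shares are therefore a description only. They make up 9 of the 24421 genes in the count table. All 9 symbols were found in the table, and all 9 passed the filter on low counts that left 15220 genes to test, Il33 only through its Null libraries.

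Cytokines are secreted proteins that act on receptors of the same or neighbouring cells. Il6, Lif and Il11 encode ligands of the IL-6 family, whose receptors share the subunit gp130, and signal through JAK kinases and STAT3. Il1a and Il33 encode IL-1 family ligands held in the cell and released on damage, and Il1rn encodes a natural blocker of the IL-1 receptor. Csf1 is the survival factor of macrophages, Tslp an epithelial and stromal cytokine that acts on dendritic cells, and Gdf15 a distant TGF-beta relative raised by many kinds of cell stress.

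The study asked how fibroblasts edited to lack TFEB and TFE3, transcription factors of lysosome and autophagy genes, respond to DNA damage. RNA sequencing was done on 12 libraries, 3 replicates in each of 4 groups. The groups were untreated MEFs of the control genotype, untreated TFEB/TFE3 double knockout (DKO) MEFs, and MEFs of each genotype after 8 hr in 100 µM etoposide, a drug that traps topoisomerase II on DNA and so breaks it. The labels call the control genotype Null, the name kept here, and the paper calls it WT. All cells grew in high-glucose DMEM with GlutaMAX, sodium pyruvate and fetal bovine serum. The DKO cells were made by CRISPR editing of Tfeb and Tfe3, and each genotype was represented by 1 immortalised line, so genotype and line cannot be told apart. The labels describe the controls as untreated and the paper's methods describe them as given DMSO.

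Counts on genes per library were 83970210, 67654759 and 66956083 in untreated Null MEFs and 74826945, 104120871 and 66749645 in untreated DKO MEFs. After etoposide they were 75454495, 76125320 and 63286195 in Null MEFs and 45577023, 68441372 and 94388705 in DKO MEFs. Levels are given as CPM (counts relative to the TMM-scaled library size), listed in the order of the replicate numbers. Nothing states whether the replicates of a group came from separate cultures, so the p-values measure the spread between these samples. The smallest p that exact permutation can reach with 3 against 3 is 0.1, so p-values come from 1 model across all genes. A gene is called here when the p that edgeR's quasi-likelihood test gave it is under 0.05 after Benjamini-Hochberg adjustment. Log2 fold changes carry their standard error (SE).

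The targeted genes were read first as a check of the labels. Tfeb stood at 38.9, 39.2 and 42.1 CPM in untreated Null libraries and at 4.60, 6.09 and 4.68 CPM in untreated DKO libraries. After etoposide it stood at 11.4, 10.2 and 10.4 CPM in Null and at 1.92, 1.61 and 2.20 CPM in DKO libraries, so every DKO library lay below every Null library. Tfe3 stood at 115, 109.9 and 114 CPM in untreated Null and at 94.1, 93.0 and 90.9 CPM in untreated DKO libraries. After etoposide the Tfe3 ranges overlapped, with 68.5, 69.6 and 68.1 CPM in Null and 70.7, 71.2 and 63.4 CPM in DKO libraries. The Tfe3 transcript was thus still counted in DKO MEFs, and these counts do not check whether protein is made from it. Between genotypes the log2 fold change of Tfeb was -2.94 (SE 0.09) untreated and -2.46 (SE 0.12) after etoposide, and that of Tfe3 was -0.29 (SE 0.04) and -0.0080 (SE 0.04).

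All 11 fibroblast markers were detected in every library, and Vim, an intermediate filament of mesenchymal cells, was the most abundant of them by its mean. Their summed level ran from 7084 to 7190 CPM in untreated Null, 11530 to 12110 in untreated DKO, 3957 to 4052 in etoposide-treated Null and 5012 to 5337 in etoposide-treated DKO libraries. Between untreated genotypes 9 of the 11 reached the filter's level in both. All 9 were called higher in DKO MEFs (8 with library size alone), against 39.2% of all genes that reached it. Of all 11 markers 10 were called higher, against 33.3% of all genes tested. The surface marker Thy1 stood at 4.21 CPM in Null and 0.0365 CPM in DKO MEFs. Macrophage and leukocyte markers, 10 genes, summed to 16.6 to 19.6 CPM in untreated Null, 7.65 to 9.40 in untreated DKO, 78.6 to 79.2 in etoposide-treated Null and 12.6 to 15.1 in etoposide-treated DKO libraries. Most of that sum was Cd14, the lipopolysaccharide co-receptor, and Tyrobp was at 0 in 10 of the 12 libraries and Adgre1 in 8. Endothelial markers summed to at most 0.270 CPM in untreated libraries, 4.68 to 5.15 CPM in etoposide-treated Null and 1.48 to 1.84 CPM in etoposide-treated DKO libraries, with Vwf the most abundant by its mean and Emcn at 0 in every untreated library. Epithelial markers summed to 2.02 to 5.94 CPM over the 12 libraries, with Krt8 the most abundant by its mean and Krt5 at 0 in 5 of the 6 untreated libraries. These sums differed between groups, and their part in the results was not tested. In bulk RNA, fewer cells that make a transcript and less of it per cell cannot be told apart.

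Taken as a sum, the 9 cytokine transcripts held 1151, 1118 and 1075 CPM in untreated Null MEFs and 2382, 2386 and 2310 CPM in untreated DKO MEFs. After etoposide the sum was 577, 581 and 562 CPM in Null and 586, 602 and 578 CPM in DKO MEFs. Untreated DKO libraries were the highest, and the etoposide-treated libraries of both genotypes were the lowest and overlapped. Csf1 made up 58.1 to 73.7% of the sum in each library and Lif 22.6 to 37.8%. Tslp reached 2.73 to 3.36% in untreated DKO libraries against 0.750 to 0.850% in untreated Null libraries.

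**Figure D1:**
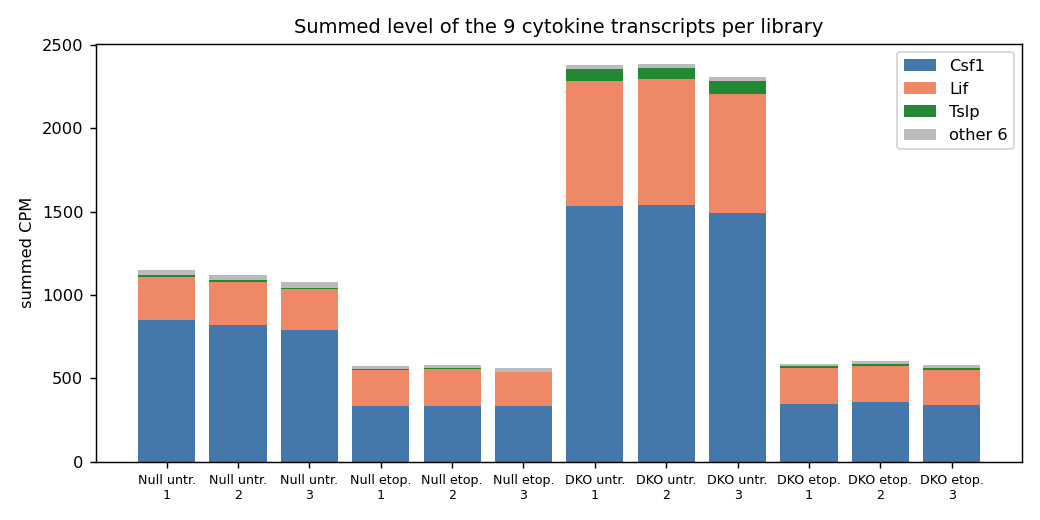
Summed level of the 9 cytokine transcripts in CPM (vertical axis) in each of the 12 libraries, with stacked segments for Csf1, Lif, Tslp and the other 6 genes. The 3 untreated DKO libraries reach 2310 to 2386 CPM, and the 6 etoposide-treated libraries lie between 562 and 602 CPM.

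Divided by the length of the joined exons, the mean level of Csf1 was 155 CPM per kilobase in untreated Null and 288 in untreated DKO MEFs, the highest of the 9 genes in both groups. Lif came next, at 58.4 and 170.1 CPM per kilobase. In untreated Null MEFs Il11 (7.07), Tslp (6.73) and Il1rn (2.37) lay between 1 and 10 CPM per kilobase, and Gdf15 (0.731), Il1a (0.450), Il6 (0.275) and Il33 (0.182) lay under 1. In untreated DKO MEFs Tslp, at 53.6 CPM per kilobase, came after Csf1 and Lif.

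**Figure D2:**
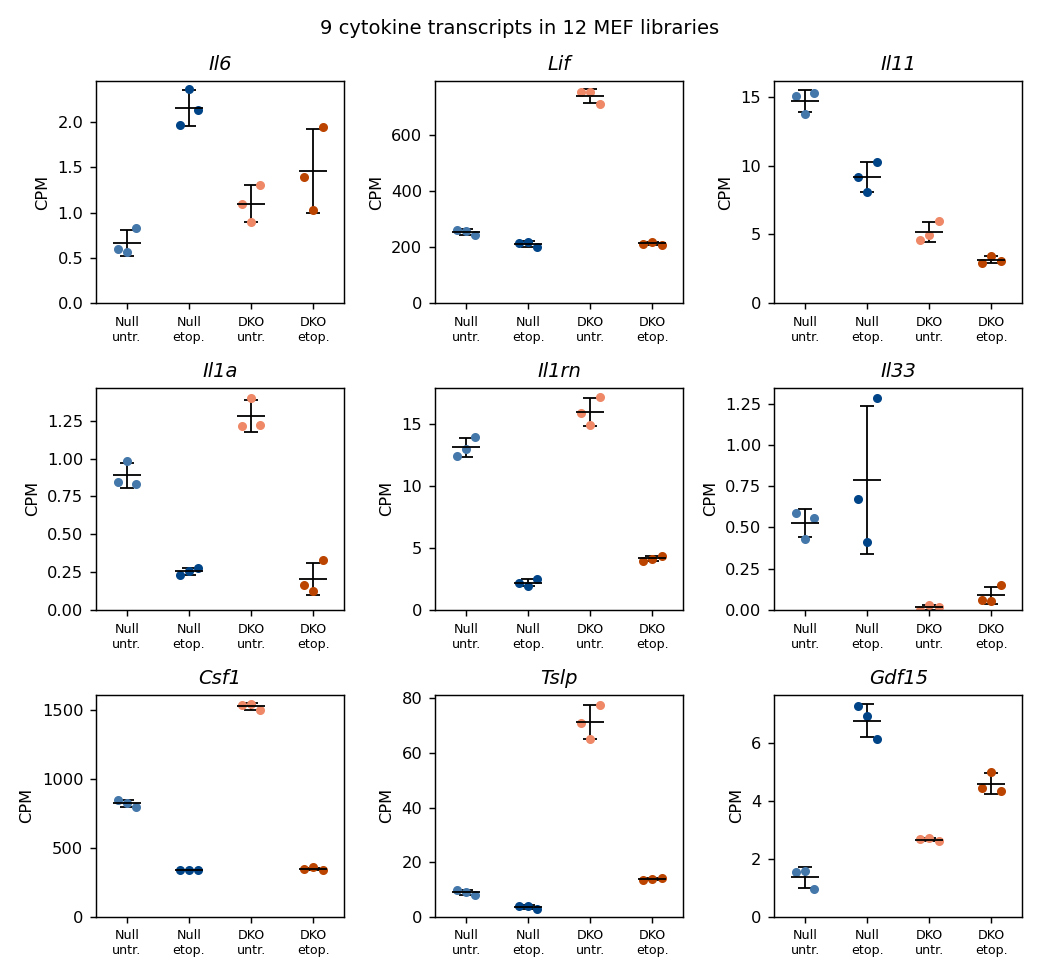
Level in CPM (vertical axes, each from 0) of the 9 cytokine transcripts in Null and DKO MEFs, untreated and after etoposide. Points are libraries, the horizontal line is the mean and the bars are 1 SD over 3 libraries; Il6 and Gdf15 are highest in etoposide-treated Null MEFs (means of 2.15 and 6.77 CPM), and Lif, Csf1 and Tslp in untreated DKO MEFs (740.0, 1522 and 71.3 CPM).

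The search of promoters looked for 5 motifs on both strands, in the 250 bases before and 50 bases after each annotated start: the E-box CACGTG that TFEB and TFE3 are known to bind, the AP-1 site TGANTCA, the CRE half-site TGACG, the kappa B site and the p53 half-site. RefSeq on GRCm38.p6 gave 13 such windows for 8 of the 9 genes, and the Tslp promoter was not analysed here. Of all 32851 promoters in the table, 7.15% held CACGTG, 7.81% TGANTCA, 20.8% TGACG, 8.46% a kappa B site and 8.36% a p53 half-site. Matches of different motifs shared 0 bases in these 13 windows. A match is a description of the letters and shows no binding.

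Il6 encodes interleukin 6, the cytokine of fever and the acute phase, and lies on the plus strand of chromosome 5 (30013114 to 30019981 on GRCm38). Its promoter (chr5:30012864-30013163, plus strand) is shown because 4 of the 5 motifs matched in it, in capitals and in this order: TGANTCA, the p53 half-site, the reverse complement of TGACG, and the kappa B site.
Il6: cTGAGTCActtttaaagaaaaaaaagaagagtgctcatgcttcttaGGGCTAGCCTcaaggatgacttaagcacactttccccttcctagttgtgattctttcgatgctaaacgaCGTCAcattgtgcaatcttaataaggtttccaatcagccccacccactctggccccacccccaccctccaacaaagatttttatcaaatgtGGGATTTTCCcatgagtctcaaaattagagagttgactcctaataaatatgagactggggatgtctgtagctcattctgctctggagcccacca
These matches begin 249, 204, 135 and 44 bases upstream of the start. The E-box CACGTG was not among the letters of this window.

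Il6 was a low transcript, with 37 to 196 counts per library. It stood at 0.602, 0.569 and 0.834 CPM in untreated Null libraries and at 1.97, 2.36 and 2.13 CPM in Null libraries after etoposide. In DKO MEFs it stood at 1.10, 0.891 and 1.31 CPM untreated and at 1.40, 1.02 and 1.95 CPM after etoposide. All 3 etoposide-treated Null libraries lay above every other library, the untreated Null libraries lay lowest, and the DKO groups lay between and overlapped each other. Etoposide raised Il6 in Null MEFs from a mean of 0.668 ± 0.145 to 2.15 ± 0.199 CPM (± SD of 3 libraries) (log2 1.70, SE 0.25, adjusted p of 7.21e-06, edgeR's quasi-likelihood test and Benjamini-Hochberg adjustment). In DKO MEFs the log2 fold change was 0.50 (SE 0.24) and not called (adjusted p of 0.0703, same edgeR test), although it was called with library size alone (0.77), without untreated DKO replicate 3 (0.62) and without etoposide-treated DKO replicate 2 (0.69). It was 0.12 without etoposide-treated DKO replicate 3 and 0.30 without untreated DKO replicate 2, so whether Il6 rose in DKO MEFs depends on single libraries. The interaction, which tests whether the response differed between genotypes, was -1.20 (SE 0.36, adjusted p of 0.00867, same edgeR test).

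Untreated DKO MEFs held more Il6 than untreated Null MEFs (log2 0.69, SE 0.29), close to the threshold (adjusted p of 0.0465, same edgeR test). That call was lost with library size alone (0.57), with all libraries thinned to the smallest (0.55), and without any one of 8 libraries. Those were untreated Null replicates 1 (0.61) and 2 (0.60), untreated DKO replicates 1 (0.67) and 3 (0.56), all 3 etoposide-treated Null replicates (0.69 each) and etoposide-treated DKO replicate 1 (0.69). After etoposide the order turned, with less Il6 in DKO than in Null MEFs (log2 -0.51, SE 0.20, adjusted p of 0.0320, same edgeR test). This call was lost without etoposide-treated Null replicates 2 (-0.44) or 3 (-0.51) and without etoposide-treated DKO replicates 1 (-0.50) or 2 (-0.32), and the value was -0.88 without etoposide-treated DKO replicate 3. Over the alternatives the adjusted p of Il6 ran from 0.0153 to 0.146 untreated and from 0.00196 to 0.158 after etoposide.

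Lif encodes leukemia inhibitory factor, which keeps mouse embryonic stem cells undifferentiated, and lies on the plus strand of chromosome 11 (4257557 to 4272514). Its promoter (chr11:4257318-4257617, plus strand) is shown for comparison with that of Il6, since the 2 transcripts went opposite ways with etoposide in Null MEFs. Capitals mark a TGANTCA match that begins 228 bases upstream of the start and a kappa B match that begins 178 bases upstream.
Lif: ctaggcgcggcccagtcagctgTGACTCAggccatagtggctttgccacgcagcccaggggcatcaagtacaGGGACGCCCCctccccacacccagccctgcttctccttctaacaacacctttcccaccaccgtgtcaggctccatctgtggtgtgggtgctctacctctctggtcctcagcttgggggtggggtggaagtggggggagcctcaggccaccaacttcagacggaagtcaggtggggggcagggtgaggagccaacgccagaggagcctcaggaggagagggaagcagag

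Lif stood at 263, 257 and 243 CPM in untreated Null libraries and at 753, 756 and 711 CPM in untreated DKO libraries. After etoposide it stood at 216, 220 and 201 CPM in Null and at 213, 218 and 209 CPM in DKO libraries. The untreated DKO libraries were the highest by far, and the etoposide-treated groups overlapped. Untreated DKO MEFs exceeded Null MEFs (log2 1.54, SE 0.04, adjusted p of 1.2e-15, same edgeR test). Etoposide lowered Lif in DKO MEFs (log2 -1.79, SE 0.04, adjusted p of 1.5e-16, same edgeR test) and less so in Null MEFs (log2 -0.26, SE 0.04, adjusted p of 1.46e-05, same edgeR test), which was -0.09 with library size alone. The interaction was -1.53 (SE 0.06, adjusted p of 6.87e-13, same edgeR test). With etoposide the difference between genotypes was 0.0070 (SE 0.04) and not called (adjusted p of 0.881, same edgeR test), and its sign turned under 11 alternatives, none below -0.06.

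Il11 encodes interleukin 11, a cytokine of fibrosis and bone turnover, and lies on the minus strand of chromosome 7 (4772373 to 4782859). It has 2 annotated starts, and the promoter of the inner one (chr7:4778092-4778391, minus strand) is shown because it held a match, to TGANTCA, in capitals, beginning 98 bases upstream of the start.
Il11: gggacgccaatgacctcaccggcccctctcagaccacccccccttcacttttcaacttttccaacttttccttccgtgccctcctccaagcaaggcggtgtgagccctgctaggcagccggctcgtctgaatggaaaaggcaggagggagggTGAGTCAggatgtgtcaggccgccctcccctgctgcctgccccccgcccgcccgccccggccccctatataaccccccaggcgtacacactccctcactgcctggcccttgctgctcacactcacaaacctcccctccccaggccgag

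Il11 stood at 15.1, 13.8 and 15.3 CPM in untreated Null libraries and at 4.57, 4.98 and 5.99 CPM in untreated DKO libraries. With etoposide it stood at 9.20, 8.10 and 10.3 CPM in Null and at 2.95, 3.43 and 3.07 CPM in DKO libraries. The 4 groups did not overlap, and every DKO library lay below every Null library. Between genotypes the log2 fold change was -1.52 (SE 0.10, adjusted p of 4.32e-10, same edgeR test) untreated and -1.53 (SE 0.12, adjusted p of 1.61e-09, same edgeR test) after etoposide. Etoposide lowered Il11, with log2 fold changes of -0.68 (SE 0.09) in Null MEFs and -0.70 (SE 0.13) in DKO MEFs (adjusted p of 2.82e-06 and 9.43e-05, same edgeR test), the second being -0.43 with library size alone. The interaction was -0.02 (SE 0.16) and not called (adjusted p of 0.943, same edgeR test), and it lay above 0 under 5 alternatives, at most at 0.09.

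Of the receptor subunits of these 3 cytokines, gp130 (Il6st) was counted at 363 CPM in untreated Null, 409 in untreated DKO, 187 in etoposide-treated Null and 287 in etoposide-treated DKO MEFs (means of 3). Il6ra, the subunit specific to IL-6, stood at 18.8, 13.5, 42.7 and 21.2 CPM in the same order, so that etoposide-treated Null MEFs held the most Il6 and the most Il6ra. Etoposide raised Il6ra, with log2 fold changes of 1.18 (SE 0.05) in Null and 0.64 (SE 0.06) in DKO MEFs, with an interaction of -0.54 (SE 0.08), all called. Lifr, the receptor of LIF, was lower in DKO than in Null MEFs, at 20.5 against 50.3 CPM untreated and 24.6 against 39.3 CPM after etoposide. Il11ra1, the receptor of IL-11, stood at 16.4, 20.04, 14.0 and 15.5 CPM in the same order, and Osmr between 64.1 and 113 CPM. Exons of Il6ra overlap Gm42809 and those of Il11ra1 overlap Ccl27a, both on the opposite strand, and since the strand setting of the counting is not stated the counts of overlapping genes are uncertain.

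Among other IL-6 family ligands, Clcf1 fell with etoposide, from 89.0 to 51.8 CPM in Null and from 89.6 to 58.3 CPM in DKO MEFs, while Lif fell further in DKO than in Null MEFs. Osm, Il27 and Ebi3 did not pass the filter on low counts. Exons of Clcf1 overlap AC109138.7 on the same strand. Counts over a list of these ligands are not given.

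Il1a encodes interleukin 1 alpha, an alarmin whose precursor is active when cells burst, and lies on the minus strand of chromosome 2 (129299610 to 129309972). Its counts were low, 8 to 129 per library, and its exons share 222 bases with Gm14023 on the opposite strand. It stood at 0.848, 0.983 and 0.834 CPM in untreated Null libraries and at 1.22, 1.40 and 1.23 CPM in untreated DKO libraries. After etoposide it stood at 0.232, 0.254 and 0.277 CPM in Null and at 0.162, 0.123 and 0.328 CPM in DKO libraries. The untreated groups lay apart with DKO above Null, and all treated libraries lay lower and overlapped between genotypes. Etoposide lowered Il1a, with log2 fold changes of -1.80 (SE 0.30, adjusted p of 2.76e-05) in Null and -2.53 (SE 0.28, adjusted p of 3.3e-07) in DKO MEFs by the same edgeR test, the second being -3.22 without etoposide-treated DKO replicate 3.

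The excess of Il1a in untreated DKO MEFs (log2 0.55, SE 0.21, adjusted p of 0.0269, same edgeR test) was lost under 7 alternatives with adjusted p over all alternatives from 0.0180 to 0.146. These were DESeq2 (0.54), limma-trend (0.52), library size alone (0.43), the legacy fit (0.53), and leaving out untreated Null replicate 1 (0.51) or 3 (0.51) or untreated DKO replicate 2 (0.46). After etoposide the value was -0.18 (SE 0.41) and not called (adjusted p of 0.705, same edgeR test), 0.09 without etoposide-treated DKO replicate 2 and -0.87 without replicate 3. The interaction of -0.73 (SE 0.46) was not called (adjusted p of 0.198, same edgeR test), and ran from -1.42 to -0.46 when 1 library was left out, called only at -1.42, without etoposide-treated DKO replicate 3.

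Il1rn encodes the IL-1 receptor antagonist and lies on the plus strand of the same chromosome (24336853 to 24351494). It stood at 12.4, 13.0 and 13.9 CPM in untreated Null libraries and at 15.9, 14.9 and 17.2 CPM in untreated DKO libraries. After etoposide it stood at 2.20, 1.96 and 2.48 CPM in Null and at 3.99, 4.15 and 4.38 CPM in DKO libraries. The 4 groups lay apart, untreated above treated and DKO above Null within each treatment. Etoposide lowered Il1rn, with log2 fold changes of -2.57 (SE 0.10, adjusted p of 8.6e-14) in Null and -1.92 (SE 0.09, adjusted p of 1.42e-12) in DKO MEFs, with an interaction of 0.65 (SE 0.14, adjusted p of 0.000696) by the same edgeR test. Between genotypes the log2 fold change was 0.28 (SE 0.07, adjusted p of 0.00258) untreated, 0.16 and no longer called with library size alone, and 0.93 (SE 0.12, adjusted p of 1.16e-06) after etoposide (same edgeR test). It was the only one of the 9 genes whose interaction lay above 0 and was called.

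Il33 encodes interleukin 33, a nuclear alarmin, and lies on the plus strand of chromosome 19 (29925114 to 29960718). Its counts were 48, 28 and 36 in untreated Null and 55, 34 and 88 in etoposide-treated Null libraries, and 0, 3 and 1 in untreated DKO and 3, 4 and 15 in etoposide-treated DKO libraries. In CPM these were 0.590, 0.430 and 0.556, then 0.671, 0.412 and 1.28, then 0, 0.0326 and 0.0168, then 0.0607, 0.0546 and 0.149. Every Null library lay above every DKO library, and Il33 passed the filter on low counts through its Null libraries, since only 1 of the 6 DKO libraries reached the filter's level, so a test between genotypes had to find it lower in DKO MEFs and its p is not given. Summed counts scaled by depth gave a ratio of 28.9 (95% exact interval 10.98 to 108) for Null over DKO MEFs untreated and 7.71 (4.93 to 12.6) after etoposide, with intervals that cover counting error only.

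As a description only, the fitted log2 fold change between genotypes was -4.73 (SE 0.80) untreated, which rests on 4 counts in DKO libraries and was -5.79 without untreated DKO replicate 2. After etoposide it was -2.93 (SE 0.50), and -3.71 without etoposide-treated DKO replicate 3. The change with etoposide was not called in Null MEFs (log2 0.52, SE 0.34, adjusted p of 0.161, same edgeR test), and the groups overlapped. It was called without etoposide-treated Null replicate 2 (0.84) and was 0.02 without replicate 3. In DKO MEFs the summed counts gave a ratio of 0.186 (0.0466 to 0.548) for untreated over treated, and the fitted log2 fold change of 2.32 (SE 1.21) was not called (adjusted p of 0.0893, same edgeR test). It was called under DESeq2 (2.35), limma-trend (1.39), the legacy fit (2.28) and without etoposide-treated Null replicate 3 (2.32), and ran from 1.54 to 3.34 when 1 library was left out, with adjusted p from 0.00952 to 0.389 over all alternatives. The interaction of 1.80 (SE 1.29) was not called (adjusted p of 0.254, same edgeR test).

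Il1rl1 (ST2), the receptor of IL-33, stood at 577, 567 and 582 CPM in untreated Null libraries and at 3708, 3710 and 4097 CPM in untreated DKO libraries, and after etoposide at 442, 454 and 465 CPM in Null and 2575, 2592 and 2746 CPM in DKO libraries. The log2 fold change between genotypes was 2.74 (SE 0.04, adjusted p of 2.63e-18) untreated and 2.54 (SE 0.04, adjusted p of 9.03e-18) after etoposide by the same edgeR test. Il1r1, the signalling receptor that IL-1 alpha and its antagonist share, stood at 53.2, 78.3, 23.4 and 32.1 CPM in untreated Null, untreated DKO, etoposide-treated Null and etoposide-treated DKO MEFs. Il1rn had the same order of group means, as did Lif and Csf1, and Il1a did not. Il1rap, the subunit that Il1rl1 and Il1r1 have in common, stood at 30.3, 35.9, 19.5 and 28.8 CPM in these groups. The decoy Il1r2 was at 0 counts in untreated DKO and at most 24 counts elsewhere. Exons of Il1rap overlap Gm20319 on the opposite strand.

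Other IL-1 family ligands, processing enzymes and decoys made up 12 symbols, of which 8 were in the table and 6 were tested. Il18, an IL-1 relative, stood at 0.480, 1.35, 2.48 and 1.10 CPM in untreated Null, untreated DKO, etoposide-treated Null and etoposide-treated DKO MEFs, with an interaction of -2.61 (SE 0.29). Casp1, the protease that matures IL-1 beta and IL-18, had at most 9 counts in any Null library, but 5.91 CPM in untreated and 3.47 CPM in etoposide-treated DKO MEFs. Il1b had at most 7 counts in any library and was not tested.

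**Figure D3:**
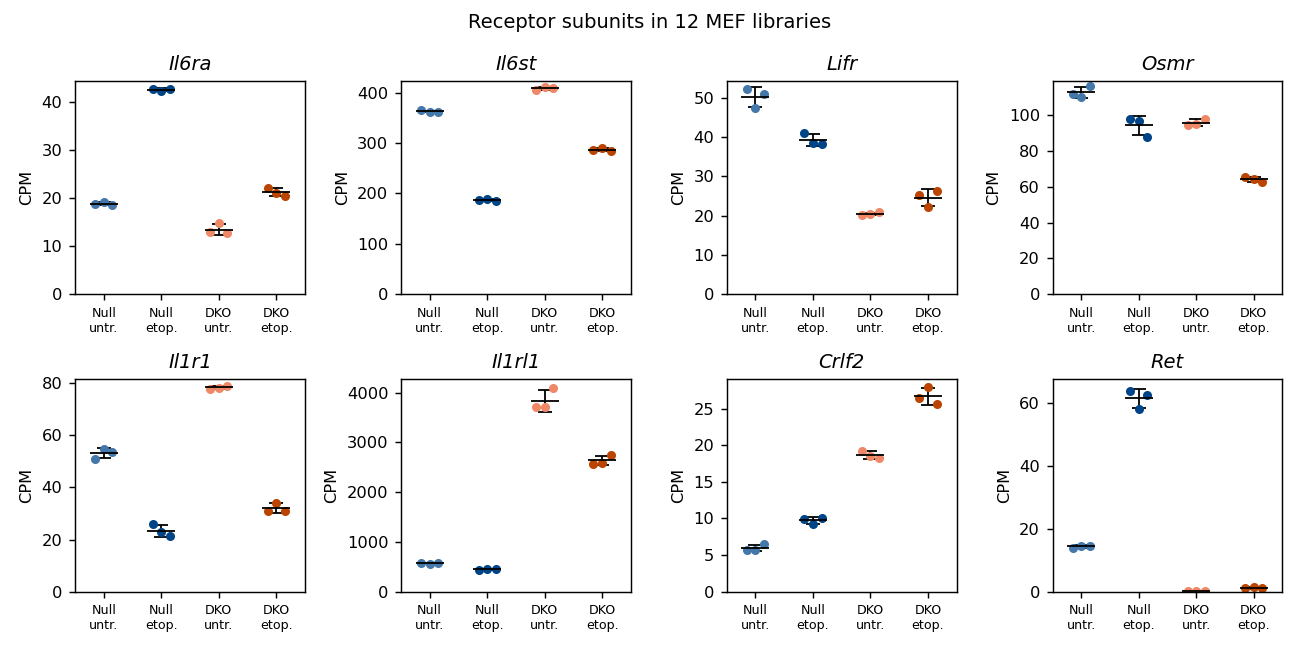
Level in CPM (vertical axes, each from 0) of 8 receptor subunits of the cytokines in Null and DKO MEFs, untreated and after etoposide. Points are libraries, the line is the mean and the bars are 1 SD over 3 libraries; Il1rl1 has means of 575 CPM in untreated Null and 3839 CPM in untreated DKO MEFs, and Ret of 14.4 and 0.209 CPM.

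Csf1 encodes macrophage colony-stimulating factor and lies on the minus strand of chromosome 3 (107741048 to 107760469). It stood at 847, 822 and 792 CPM in untreated Null libraries and at 1532, 1540 and 1493 CPM in untreated DKO libraries. After etoposide it stood at 335, 337 and 336 CPM in Null and at 347, 357 and 340.4 CPM in DKO libraries. Untreated DKO MEFs were highest, untreated Null MEFs next, and the treated groups lay side by side, DKO just above Null. Csf1 was higher in untreated DKO than in untreated Null MEFs (log2 0.89, SE 0.03, adjusted p of 7.98e-14, same edgeR test). With etoposide it fell by 1.29 on the log2 scale (SE 0.03) in Null and by 2.13 (SE 0.03) in DKO MEFs, with an interaction of -0.84 (SE 0.04, adjusted p of 7.7e-11, same edgeR test). The difference left between genotypes, 0.05 (SE 0.03), was not called (adjusted p of 0.169, same edgeR test) and had a sign that turned under 3 alternatives. Its receptor Csf1r, a marker of macrophages, had 14 to 69 counts per library, and its exons overlap Hmgxb3 on the opposite strand.

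Gdf15 encodes growth differentiation factor 15, which lowers appetite through the brainstem, and lies on the minus strand of chromosome 8 (70629393 to 70632456). Of its 2 annotated starts, the promoter of the inner one (chr8:70632046-70632345, minus strand) is shown because it was the only one of the 13 windows that held the E-box CACGTG, in capitals, beginning 83 bases upstream of the start.
Gdf15: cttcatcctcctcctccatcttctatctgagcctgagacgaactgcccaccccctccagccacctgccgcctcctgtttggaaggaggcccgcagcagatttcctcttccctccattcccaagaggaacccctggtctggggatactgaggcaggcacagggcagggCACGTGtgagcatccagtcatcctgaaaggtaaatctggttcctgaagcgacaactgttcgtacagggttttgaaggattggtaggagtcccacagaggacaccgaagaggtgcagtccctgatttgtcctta
Neither of its windows matched the p53 half-site. Il1a, Il1rn and Csf1 each had 1 match in their windows, to TGANTCA 12 and 141 bases upstream and to the kappa B site 154 bases upstream, and Il33 had none in 2 windows.

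Gdf15 stood at 1.54, 1.58 and 0.942 CPM in untreated Null libraries and at 7.26, 6.91 and 6.14 CPM in Null libraries after etoposide. In DKO MEFs it stood at 2.68, 2.72 and 2.60 CPM untreated and at 4.45, 5.01 and 4.33 CPM after etoposide. The 4 groups lay apart in the order untreated Null, untreated DKO, treated DKO, treated Null, the same order of means as for Il6. Etoposide raised Gdf15 from a mean of 1.35 ± 0.357 to 6.77 ± 0.574 CPM (± SD of 3 libraries) in Null MEFs (log2 2.31, SE 0.14, adjusted p of 8.08e-11, same edgeR test). In DKO MEFs it rose from 2.67 ± 0.0594 to 4.60 ± 0.364 CPM (± SD of 3 libraries) (log2 0.78, SE 0.13, adjusted p of 5.4e-05, same edgeR test). The interaction was -1.53 (SE 0.21, adjusted p of 6.06e-06, same edgeR test). DKO MEFs thus began higher (log2 0.97, SE 0.17, adjusted p of 8.18e-05), and ended lower (log2 -0.57, SE 0.11, adjusted p of 0.000217) by the same edgeR test. In no alternative was any of these Gdf15 calls lost.

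The receptor of GDF15, Gfral, is confined to the hindbrain in the body and had at most 4 counts in any library here. Its co-receptor Ret, also the signalling receptor of the GDNF family, stood at 14.4 CPM in untreated Null and 0.209 CPM in untreated DKO MEFs, and at 61.4 and 1.23 CPM after etoposide. The log2 fold change of Ret between genotypes was -6.14 (SE 0.14) untreated and -5.65 (SE 0.09) after etoposide, both called.

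Tslp encodes thymic stromal lymphopoietin and lies on the plus strand of chromosome 18 (32815383 to 32819797). It stood at 9.78, 9.02 and 8.06 CPM in untreated Null libraries and at 71.0, 65.2 and 77.6 CPM in untreated DKO libraries. After etoposide it stood at 3.93, 3.92 and 2.76 CPM in Null and at 13.3, 13.8 and 14.2 CPM in DKO libraries. The 4 groups lay apart, and even treated DKO libraries lay above untreated Null ones. Between genotypes Tslp had the largest rise of the 9 genes in DKO MEFs, 7.92-fold untreated (log2 2.98, SE 0.09, adjusted p of 5.17e-15) and 3.88-fold after etoposide (log2 1.95, SE 0.11, adjusted p of 2.85e-11) by the same edgeR test. Etoposide lowered it, with log2 fold changes of -1.33 (SE 0.12, adjusted p of 9.3e-09) in Null and -2.36 (SE 0.08, adjusted p of 5.06e-14) in DKO MEFs, with an interaction of -1.03 (SE 0.15, adjusted p of 1.18e-05) by the same edgeR test. Of its receptor, the subunit Crlf2 was also higher in DKO MEFs, at 18.7 against 5.94 CPM untreated and 26.7 against 9.77 CPM after etoposide, and Il7r had at most 2 counts in any library.

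**Figure D4:**
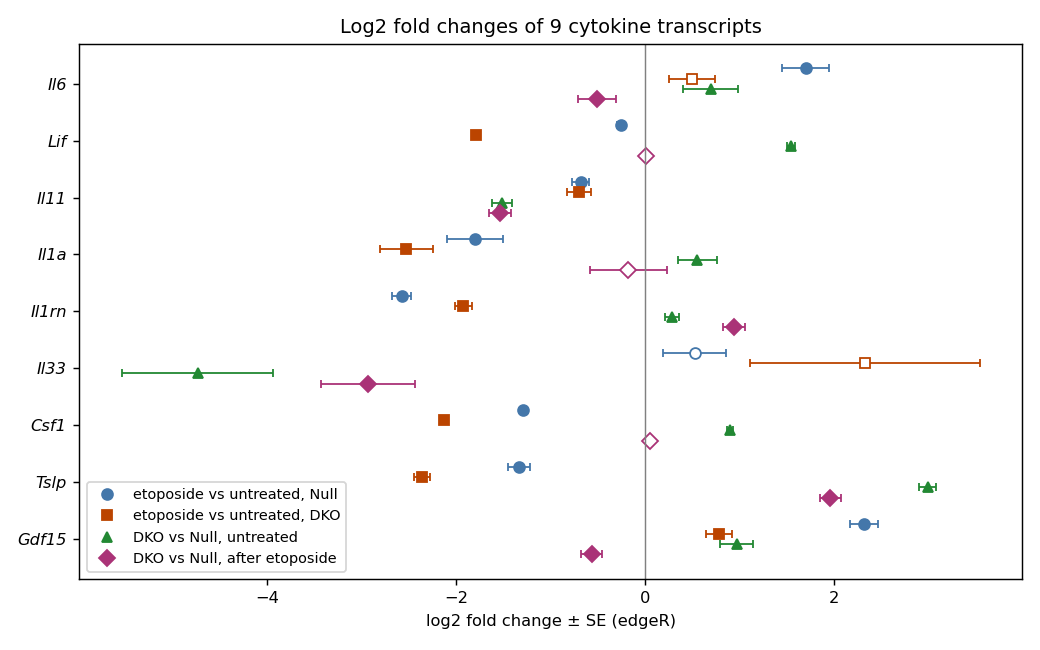
Log2 fold change with its standard error (horizontal axis) of the 9 cytokine transcripts in 4 comparisons, from edgeR. Filled symbols have an adjusted p under 0.05; Il6 and Gdf15 lie right of 0 for etoposide in Null MEFs (1.70 and 2.31) and left of 0 for DKO against Null MEFs after etoposide (-0.51 and -0.57). Filled symbols of Il33 between genotypes follow from the filter.

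The comparison of treated with untreated Null MEFs asks how control fibroblasts answer DNA damage. Of the 9 cytokine transcripts, 2 rose, Il6 (3.24-fold) and Gdf15 (4.97-fold), and 6 fell, with Il33 not called. The largest falls were those of Il1rn (5.96-fold), Il1a (3.48-fold) and Tslp (2.52-fold). Among all 15220 genes 42.3% were called higher and 37.2% lower. Of genes that, like all 9 cytokines, reached the filter's level in both Null groups, 36.1% were higher and 42.9% lower. Beside either background 2 of 9 higher was fewer and 6 of 9 lower more, with smaller gaps beside the second. With 9 genes such gaps amount to few genes, and they were not tested. The median log2 fold change was -0.68 for the 9 cytokines, 0.07 for all genes and -0.05 for the genes that reached the filter's level in both groups. Library size alone moved the all-gene split from 6435 higher and 5656 lower to 7803 and 4396, with an all-gene median of 0.23, and left the cytokine split at 2 and 6 (median -0.52).

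The same comparison in DKO MEFs asks how the edited line answers the drug. Here 1 of the 9 rose, Gdf15 (1.72-fold), and 6 fell, led by Il1a (5.76-fold), Tslp (5.14-fold) and Csf1 (4.37-fold), while Il6 and Il33 were not called. Background shares were 43.7% higher and 31.5% lower, so the count of cytokines higher was again below and that of cytokines lower above the background. Of genes that reached the filter's level in both DKO groups 38.6% were higher and 37.9% lower, beside 1 and 6 of the 8 cytokines other than Il33. The medians were -1.79 for the cytokines and 0.14 for all genes. With library size alone the all-gene split went from 6645 and 4790 to 9316 and 3006 (median 0.41) and the cytokine split to 2 and 6 (median -1.52), as Il6 was then called.

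Comparing untreated genotypes asks how the 2 lines differ before any drug. Il33 is left out of the counts between genotypes, since the filter let it in through its Null libraries. Of the other 8 cytokines 7 were higher in DKO MEFs and 1 lower, Il11. Tslp (7.92-fold), Lif (2.91-fold), Gdf15 (1.95-fold) and Csf1 (1.85-fold) led the higher ones, and Il6 (1.61-fold), Il1a (1.46-fold) and Il1rn (1.22-fold) followed. Of all genes 33.3% were called higher and 33.4% lower, and of those kept by the same rule as the 8 cytokines 39.2 and 34.4%, so 7 of 8 higher was more than the background share, and 1 of 8 lower fell short of it by under 2 genes, which says little. The all-gene median was -0.02. Library size alone gave 3977 higher and 6393 lower genes in place of 5066 and 5091 (median -0.14), and left 4 of the 8 cytokines higher and 1 lower, as Il6, Il1a and Il1rn were then not called.

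The comparison of genotypes after etoposide asks what remains of these differences under damage. Of the same 8, Tslp (3.88-fold) and Il1rn (1.91-fold) were higher in DKO MEFs, Il6, Il11 and Gdf15 were lower, and Lif, Il1a and Csf1 were not called. With 37.5% of all genes higher and 36.6% lower, or 40.6 and 34.6% of those kept by the same rule, 2 of 8 higher and 3 of 8 lower lay within about 1 gene of the background share, so the counts say little about these genes. The all-gene median was -0.0045. It shares its libraries with the comparisons before it, as each group serves in 2 of the 4. With DESeq2's size factors the all-gene split went from 5701 higher and 5569 lower to 5072 and 6096, and the split of the 8 cytokines remained 2 and 3.

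The interaction asks whether the response to etoposide differed between genotypes. It was above 0 and called for 1 cytokine, Il1rn, and below 0 for 5, Lif, Gdf15, Il6, Tslp and Csf1, and was not called for Il11, Il1a and Il33. Among all genes 29.6% were above and 24.4% below 0, in all 8226 of 15220, so 6 of 9 called lay within about 1 gene of the background, with more of them below 0 and fewer above 0 than its shares. The medians were -0.84 for the 9 cytokines and 0.05 for all genes. Of genes that reached the filter's level in all 4 groups 34.6% were above and 28.1% below 0, beside 1 and 5 of the 8 cytokines other than Il33. For Lif, Tslp and Csf1 the value below 0 went with a deeper fall in DKO MEFs, and for Il6 and Gdf15 with a smaller log2 fold change in DKO than in Null MEFs from a higher untreated level. Library size alone changed the all-gene split from 4507 and 3719 to 5735 and 3055 (median 0.15), DESeq2's size factors changed it to 3797 and 4192 (median -0.02), and both left the cytokine split at 1 and 5.

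Counts over lists of related genes leave out genes that, like Il33 between genotypes, stayed under the filter's level in 2 or more libraries of a group compared, since the filter let these in through other groups. Which genes are left out is thus partly decided by the change itself, so where a list loses genes the counts over all its tested genes are given too. Brackets give the range over TMM, DESeq2's size factors and library size alone, for medians where the sign changes. Among all genes kept in the same way 36.1% were higher and 42.9% lower with etoposide in Null MEFs, 38.6 and 37.9% in DKO MEFs, 39.2 and 34.4% between untreated genotypes, 40.6 and 34.6% between genotypes after etoposide, and 34.6 and 28.1% above and below 0 in the interaction. Over the same scalings these genes numbered 4725 to 6041 higher and 4362 to 5622 lower with etoposide in Null MEFs. In DKO MEFs the ranges were 4682 to 7348 and 2971 to 4885. Between genotypes they were 3757 to 4865 and 4225 to 5515 untreated, and 4984 to 5605 and 4783 to 5290 after etoposide. Interaction counts ran from 3565 to 5449 above 0 and from 2795 to 3908 below. No list was tested against these shares, and the lists were chosen with earlier results of these data known.

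The list of 14 receptors and signal transducers of the 9 cytokines gave 4 higher and 7 (5 to 7) lower of 11 (median -0.26) with etoposide in Null MEFs and 4 higher and 6 (4 to 6) lower of 11 (median -0.35) in DKO MEFs. Between genotypes it gave 7 (5 to 7) higher and 4 lower of 11 (median 0.25) in untreated DKO MEFs and 6 (5 to 6) higher and 4 (4 to 5) lower of 12 (median 0.06, -0.0037 to 0.06) after etoposide. In the interaction it gave 3 above 0 and 4 (3 to 6) below of 11 (median -0.14). Higher and lower over all 12 tested were 5 and 7 (median -0.24) with etoposide in Null and 5 and 6 (median -0.33) in DKO MEFs, 7 and 4 (median 0.21) and 6 and 4 (median 0.06) between genotypes untreated and after etoposide, and 3 and 4 (median -0.12) in the interaction.

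The list of 12 other IL-1 family genes gave 1 higher and 2 (1 to 2) lower of 4 (median -0.35) with etoposide in Null MEFs and 0 higher and 3 lower of 5 (median -0.55) in DKO MEFs. Between genotypes these split into 3 (2 to 3) higher and 1 lower of 4 (median 0.48) in untreated DKO MEFs and 1 higher and 2 (2 to 3) lower of 4 (median -0.23) after etoposide. For the interaction the split was 0 above 0 and 3 below of 4 (median -0.39). All 6 tested split into 2 and 2 (median 0.62) with etoposide in Null and 1 and 3 (median -0.40) in DKO MEFs, 4 and 2 (median 0.48) and 2 and 3 (median -0.23) between genotypes untreated and after etoposide, and 0 and 3 (median -0.78) in the interaction. With at most 5 genes kept, these splits are a description.

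Patterns most like those of Il6 and Gdf15 were sought among the 11999 genes that averaged 1 CPM or more, by the root mean square difference of centred log2 CPM (0.1 added) over the 12 libraries. For Il6 these were Ppil3 (0.198), Notum (0.222), Mettl21a (0.229), Prps2 (0.230) and Ttc23 (0.233). For Gdf15 they were Thumpd2 (0.0915), Btg2 (0.171), Vmac (0.194), Efr3b (0.204) and Neu3 (0.210). Exons of Ppil3 overlap Nif3l1, those of Notum Notumos, those of Ttc23 Synm, those of Vmac Ndufa11 and those of Efr3b Gm48001, all on the opposite strand. Thumpd2, the nearest to Gdf15, stood at 3.32, 6.14, 16.8 and 11.5 CPM in untreated Null, untreated DKO, etoposide-treated Null and etoposide-treated DKO MEFs, and Btg2, a known p53 target, at 93.1, 158, 476 and 306 CPM.

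Gdf15 is itself known as a p53 target. The paper cautions that SV40 immortalisation of its MEFs can affect p53 stability and so confound. Beside Gdf15, 20 other p53 targets were read. They gave 18 higher and 2 lower of 20 (median 2.17) with etoposide in Null MEFs and 16 (16 to 17) higher and 3 lower of 20 (median 0.96) in DKO MEFs. Comparing genotypes, they gave 8 (6 to 8) higher and 11 lower of 20 (median -0.16) in untreated DKO MEFs and 1 (0 to 1) higher and 18 (18 to 19) lower of 20 (median -0.75) after etoposide. Interactions were 2 (1 to 2) above 0 and 16 (15 to 17) below of 20 (median -0.86). Mdm2, the ubiquitin ligase of p53, stood at 121, 108.7, 1834 and 589 CPM in untreated Null, untreated DKO, treated Null and treated DKO MEFs, so Gdf15 (1.35, 2.67, 6.77 and 4.60 CPM) shared its order among the treated groups and not among the untreated ones. The 20 targets differed in this, with 8 higher and 11 lower in untreated DKO MEFs, and Btg2 had the order of Gdf15 in all 4 groups.

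Gdf15 is also known to rise in the integrated stress response, read from 15 genes. These gave 2 higher and 13 (9 to 13) lower of 15 (median -0.47) with etoposide in Null MEFs and 5 (5 to 6) higher and 8 (6 to 8) lower of 15 (median -0.25, -0.27 to 0.02) in DKO MEFs. Comparing genotypes, these gave 5 (3 to 5) higher and 8 (8 to 9) lower of 15 (median -0.28) in untreated DKO MEFs and 11 (9 to 11) higher and 3 lower of 15 (median 0.25) after etoposide. Their interactions were 11 (9 to 12) above 0 and 1 below of 15 (median 0.42). Chac1, a target of ATF4, fell with etoposide in both genotypes (log2 -2.63 and -2.21, SE 0.06 each), and Atf5 rose in both (log2 0.42 and 1.39, SE 0.04 each). Exons of Atf5 overlap Nup62 and Il4i1 on the opposite strand.

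Other TGF-beta superfamily ligands, 23 genes, gave 3 (3 to 6) higher and 3 lower of 11 (median -0.00085, -0.00085 to 0.17) with etoposide in Null MEFs and 3 higher and 9 (7 to 9) lower of 12 (median -0.76) in DKO MEFs. By genotype they gave 7 higher and 0 (0 to 1) lower of 11 (median 1.39) in untreated DKO MEFs and 5 (4 to 5) higher and 6 lower of 13 (median 0.27) after etoposide. The interaction was 0 above 0 and 8 below of 11 (median -0.89). Without that rule the 18 tested gave 9 and 4 (median 0.59) with etoposide in Null and 6 and 9 (median -0.46) in DKO MEFs, 9 and 2 (median 0.40) and 5 and 8 (median 0.03, or -0.03 with DESeq2's size factors) between genotypes untreated and after etoposide, and 0 and 10 (median -0.67) in the interaction. Inhbb, a subunit of activin B, rose with etoposide in both genotypes as Gdf15 did (log2 2.55, SE 0.23, and 2.22, SE 0.30). Tgfb2 had a log2 interaction of -2.51 (SE 0.10), below the -1.53 of Gdf15, and its exons overlap Gm29491 on the opposite strand.

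Transcription factors and inhibitors known to act on cytokine promoters, 22 genes, gave 8 (8 to 10) higher and 10 (7 to 10) lower of 22 (median -0.15, -0.15 to 0.01) with etoposide in Null MEFs and 4 (4 to 6) higher and 14 (11 to 14) lower of 22 (median -0.50) in DKO MEFs. Between genotypes they gave 11 (9 to 11) higher and 8 lower of 22 (median 0.14) in untreated DKO MEFs and 6 higher and 14 lower of 22 (median -0.29) after etoposide. Their interaction was 4 (4 to 7) above 0 and 12 (11 to 12) below of 22 (median -0.32). Nfkb1, a subunit of NF-kappa B, fell with etoposide in Null MEFs (log2 -2.10, SE 0.04), where Il6 rose. Fos, a subunit of AP-1, rose there by 1.84 on the same scale and was lower in DKO than in Null MEFs after etoposide, at -1.20.

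RNA-binding proteins known to act on cytokine mRNA, 10 genes, gave 2 higher and 7 lower of 10 (median -0.52) with etoposide in Null MEFs and 1 higher and 9 (8 to 9) lower of 10 (median -0.66) in DKO MEFs. By genotype these gave 5 (3 to 5) higher and 3 (3 to 4) lower of 10 (median 0.06, -0.06 to 0.07) in untreated DKO MEFs and 3 higher and 4 (4 to 5) lower of 10 (median -0.05) after etoposide. Interactions of these were 3 (2 to 3) above 0 and 4 (4 to 6) below of 10 (median -0.16). Zc3h12a (Regnase-1), a nuclease known to degrade Il6 mRNA, fell with etoposide in DKO MEFs (log2 -1.60, SE 0.11) and was lower there than in treated Null MEFs, at -1.15 (SE 0.11). Arid5a, a protein known to protect Il6 mRNA, fell in both genotypes, at -1.70 and -1.67.

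Downstream of the IL-6 family, 17 JAK-STAT3 mediators and feedback targets gave 7 (7 to 9) higher and 6 lower of 16 (median 0.34) with etoposide in Null MEFs and 5 (5 to 7) higher and 10 (7 to 10) lower of 16 (median -0.36) in DKO MEFs. For genotype they gave 11 (10 to 11) higher and 3 lower of 16 (median 0.30) in untreated DKO MEFs and 10 (7 to 10) higher and 6 lower of 16 (median 0.18) after etoposide. The interaction split was 3 above 0 and 9 (7 to 10) below of 16 (median -0.26). Higher and lower among all 17 tested were 7 and 6 (median 0.56) with etoposide in Null and 6 and 10 (median -0.33) in DKO MEFs, 11 and 4 (median 0.28) and 10 and 6 (median 0.15) between genotypes untreated and after etoposide, and 3 and 9 (median -0.18) in the interaction. Cebpd, a known STAT3 target, was higher in DKO MEFs both untreated and after etoposide (log2 1.42 and 1.07, SE 0.08 each), where Lif was higher untreated only. Bcl3 fell with etoposide in both genotypes (log2 -1.55 and -1.62). Exons of Cebpd overlap Spidr and those of Bcl3 overlap Gm16175, both on the opposite strand.

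Other cytokines and growth factors, 31 genes, gave 11 (11 to 12) higher and 10 (8 to 10) lower of 24 (median 0.22) with etoposide in Null MEFs and 5 (5 to 6) higher and 17 (14 to 18) lower of 25 (median -0.73) in DKO MEFs. These genes include the receptor Fas, which is also counted among the p53 targets. Comparison of genotypes gave 16 higher and 3 (3 to 5) lower of 23 (median 0.61) in untreated DKO MEFs and 7 higher and 13 lower of 27 (median -0.39) after etoposide. In the interaction they were 1 above 0 and 14 below of 23 (median -0.58). With all 28 tested the splits were 15 and 10 (median 0.49) with etoposide in Null and 7 and 17 (median -0.67) in DKO MEFs, 17 and 4 (median 0.59) and 7 and 14 (median -0.40) between genotypes untreated and after etoposide, and 1 and 16 (median -0.65) in the interaction. Fgf7 and Vegfa fell with etoposide in both genotypes, as Csf1 and Tslp did, with log2 fold changes of -3.23 and -2.67 in DKO MEFs. In Null MEFs the largest changes of this list were rises of Il15 (3.28) and Csf2 (2.29), followed by the fall of Fgf7 (-2.19). Exons of Csf2 overlap Gm12223 on the opposite strand.

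Senescence-associated secreted proteins other than the 9 cytokines, 32 genes, gave 10 (10 to 13) higher and 13 lower of 27 (median -0.34) with etoposide in Null MEFs and 2 (2 to 4) higher and 21 (18 to 21) lower of 26 (median -0.91) in DKO MEFs. Genotypes compared, they gave 17 (16 to 17) higher and 8 (7 to 9) lower of 26 (median 0.69) in untreated DKO MEFs and 10 (9 to 10) higher and 12 (12 to 14) lower of 27 (median -0.08) after etoposide. Interaction values were 3 (3 to 5) above 0 and 16 (15 to 17) below of 26 (median -0.80). Over all 30 tested these were 13 and 13 (median 0.03) with etoposide in Null and 4 and 21 (median -0.79) in DKO MEFs, 18 and 10 (median 0.60) and 10 and 13 (median -0.10) between genotypes untreated and after etoposide, and 3 and 16 (median -0.78) in the interaction. The chemokines Ccl7 and Ccl2 fell furthest in DKO MEFs, at -3.71 (SE 0.09) and -3.18 (SE 0.05), more than any of the 9 cytokines.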

How the data were processed

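RNA-Seq of 12 MEF libraries was used, with groups and replicate numbers taken from the labels. The authors deposited whole counts per gene, made after alignment with HISAT2 to mm10. The submitters' notes name featureCounts and the paper HTSeq on GENCODE genes, with no versions and no strand setting. Lines for reads on no gene were left out (53.4 to 63.1% of each library was on genes). Counts were filtered with filterByExpr, TMM-scaled and fitted in edgeR 4.0.16 (R 4.3.3) with glmQLFit, 1 model of 4 groups, and tested with glmQLFTest over 15220 genes. Each standard error is the absolute log2 value over the square root of F. The 9 cytokines and the lists were chosen with earlier results of these data known.

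All 9 cytokines, Tfeb and Tfe3 are named. Of each list and comparison up to 3 genes with the largest change among those called, with a mean of at least 1 CPM, may be named, as may receptors and some IL-6 family ligands, and 5 genes most like Il6 and Gdf15. Casp1, Il1b and Il1r2 levels and Thy1 are given as descriptions. Alternatives were DESeq2 1.42.0, limma-trend (limma 3.58.1, prior count 2), DESeq2 size factors, library size alone, no filter, a stricter filter (mean of 1 CPM), thinning, a replicate block, the 6 libraries compared, each library left out, and a legacy fit. Promoters come from RefSeq on GRCm38.p6, and gene positions and exon overlaps from GENCODE, matched by symbol. List counts leave out genes under the filter's level (0.14 CPM) in 2 or more libraries of a group compared, a rule added after seeing the data. Scripts were tested on simulated data. Figures used matplotlib 3.10.9 in Python 3.11.15.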

Additional observations from a re-analysis of the deposited data

Results flagged for a closer look

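For 6 of the 9 cytokine transcripts the response to etoposide differed between Null and DKO MEFs by the interaction term (edgeR's quasi-likelihood test, Benjamini-Hochberg adjusted over all genes). The log2 interaction was -1.20 for Il6, -1.53 for Lif, -0.84 for Csf1, -1.03 for Tslp and -1.53 for Gdf15, where the response in DKO MEFs lay below that in Null MEFs. It was 0.65 for Il1rn, whose fall was smaller in DKO MEFs. Among all genes 29.6% had an interaction called above 0 and 24.4% below, in all 8226 of 15220, so the count of 6 of 9 is near the background.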

How the results depend on the processing

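Over 45 log2 fold changes of the 9 cytokines and 970 alternative values, 919 kept direction and side of the threshold, 22 lost the call, 9 gained it and 20 changed sign. For the other 205 values of named genes, 4418 of 4465 kept both and 47 lost the call. The number of cytokines called lay within 7 to 9 for etoposide in Null MEFs, 6 to 8 in DKO MEFs, 6 to 9 and 5 to 6 between genotypes untreated and after etoposide, and 6 to 7 for the interaction. The counts between genotypes include Il33, which the filter let in through its Null libraries. The stricter filter left Il33 and Il1a untested.

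Each value that changed sign was not called in any fit, and the cause was not tested. For Lif between genotypes after etoposide it was -0.0525 under DESeq2, -0.0524 with its size factors, -0.0079 if scaled by library size alone, -0.0119 with no filter, -0.0579 with the stricter filter and -0.0044 after thinning. Leaving out 1 library gave -0.0149 (untreated DKO replicate 1), -0.0152 (untreated DKO 2), -0.0273 (treated Null 3), -0.0109 (treated DKO 1) and -0.0233 (treated DKO 2), while it was 0.0252 without treated Null 2. For Csf1 in that comparison it was -0.0095 under DESeq2, -0.0094 with DESeq2's size factors and -0.0147 with the stricter filter. For Il1a it was 0.0866 without treated DKO replicate 2 and kept its sign elsewhere, reaching -0.87 without treated DKO 3. The Il11 interaction was 0.0854 with library size alone, 0.0293 without untreated Null replicate 2, 0.0867 without untreated DKO 3, 0.065 without treated Null 3 and 0.0013 without treated DKO 3, against -0.11 without untreated DKO 1.

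With the replicate block the cytokine calls numbered 8, 7, 9, 6 and 6 in the 5 comparisons, as without it. Deviations of libraries with the same replicate number correlated across genes at -0.03 to 0.04, so no effect shared by a replicate number was seen. Whether libraries with the same number were handled together is not stated. The legacy fit was chosen after seeing the data and called 8, 8, 8, 6 and 6.

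With 1 line per genotype, differences between genotypes are differences between 2 lines. Il6, Il1a and Il33 had at most 196 counts in each library, so 1 library can decide a call. Overlapping genes are uncertain without a stated strand setting, and transcript levels say nothing of secreted protein.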
